A study of Homo sapiens with 12 samples.

Results

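The genes described here encode subunits of the ATP-dependent chromatin remodelers outside the CHD family, that is, of the SWI/SNF, ISWI and INO80 classes together with the SNF2-type ATPases HELLS and ATRX. A list of 38 genes was matched by symbol to the annotation of the array, and each gene was represented by its brightest probe set over the 12 arrays. Of these, 37 had a probe set annotated with that symbol alone, among 18418 genes measured in this way. SMARCD2 was left out because its probe set is annotated to a second gene as well. ATRX had 2 such probe sets and the other members 1.

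RNA was measured in T47D-MTVL cells, a derivative of the human breast cancer line T47D that expresses the progesterone receptor and carries 1 integrated copy of the MMTV promoter. Before treatment the cells had received either the control siRNA, siCt, or siCHD8, which transiently depletes the CHD-family remodeler CHD8. All of them were kept for 48 h without serum in medium free of phenol red. They then received 10 nM of the synthetic progestin R5020 or its ethanol vehicle (EtOH) for 6 h. Each of the 4 conditions, siCt EtOH, siCt R5020, siCHD8 EtOH and siCHD8 R5020, was measured on 3 arrays of biological replicates. The label does not say whether these were separate transfections, so the p-values measure the spread between these samples. All results come from this line, and serum deprivation and transfection were shared by every condition.

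Chromatin remodelers use ATP hydrolysis to slide, evict or exchange nucleosomes. SWI/SNF complexes are built around SMARCA4 (BRG1) or SMARCA2 (BRM) and exist as BAF, PBAF and ncBAF, which differ in accessory subunits. ISWI enzymes (SMARCA1, SMARCA5) space nucleosomes together with large partners such as BPTF and the BAZ proteins, whereas INO80, SRCAP and EP400 (p400) remodel or exchange nucleosomes that carry the histone variant H2A.Z, with the RUVBL1 and RUVBL2 AAA+ ATPases as shared subunits. In breast cancer cells SWI/SNF and ISWI-type activities are known cofactors of steroid receptors. The comparisons address whether the progestin, the depletion of CHD8 or both alter the transcripts of these other remodelers.

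Promoter windows of members that moved are shown first. These are 300 bases, from 250 before to 50 after the RefSeq transcription start in GRCh38.p14, on the strand of the gene. EP400 is shown as the member that rose most with R5020, RUVBL1 as the member that fell most with siCHD8, RUVBL2 as its partner and HELLS as another member lower with siCHD8. The windows lie at chr12:131949692-131949991 (plus strand) for EP400, chr3:128123763-128124062 (minus strand) for RUVBL1, chr19:48993637-48993936 (plus strand) for RUVBL2 and chr10:94545538-94545837 (plus strand) for HELLS. RUVBL1 and RUVBL2 have another window each that is not shown. Capitals mark matches, on either strand, to the motifs TGTTCT (core of the progestin response element), TTTGGCGC (E2F), CCGGAAG (ETS) and GGGCGGG (SP1).
EP400: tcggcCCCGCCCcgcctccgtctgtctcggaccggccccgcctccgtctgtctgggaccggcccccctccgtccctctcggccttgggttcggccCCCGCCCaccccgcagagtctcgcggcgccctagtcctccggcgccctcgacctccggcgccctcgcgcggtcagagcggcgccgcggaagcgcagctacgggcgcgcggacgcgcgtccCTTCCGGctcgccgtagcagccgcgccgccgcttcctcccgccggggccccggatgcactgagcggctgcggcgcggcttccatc
RUVBL1: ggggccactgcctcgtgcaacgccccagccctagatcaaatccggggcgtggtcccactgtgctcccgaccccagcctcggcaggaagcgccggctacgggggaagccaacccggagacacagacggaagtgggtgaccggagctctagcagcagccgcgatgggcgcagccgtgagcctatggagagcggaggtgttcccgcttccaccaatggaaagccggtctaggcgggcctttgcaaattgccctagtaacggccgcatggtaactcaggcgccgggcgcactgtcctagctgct
RUVBL2: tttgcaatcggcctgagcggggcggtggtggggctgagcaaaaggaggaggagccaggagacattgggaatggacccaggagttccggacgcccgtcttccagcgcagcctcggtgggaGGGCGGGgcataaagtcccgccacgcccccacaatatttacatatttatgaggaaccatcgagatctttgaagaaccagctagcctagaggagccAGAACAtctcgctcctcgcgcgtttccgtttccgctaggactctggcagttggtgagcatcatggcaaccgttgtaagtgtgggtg
HELLS: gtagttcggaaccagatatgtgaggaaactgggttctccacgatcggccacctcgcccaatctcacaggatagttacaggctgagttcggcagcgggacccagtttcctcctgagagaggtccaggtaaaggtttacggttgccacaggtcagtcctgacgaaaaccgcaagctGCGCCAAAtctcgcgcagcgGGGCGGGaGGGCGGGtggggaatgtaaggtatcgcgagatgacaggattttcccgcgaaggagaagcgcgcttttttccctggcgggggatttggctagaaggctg

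The EP400 window held CTTCCGG and a pair of CCCGCCC, the reverse complements of the ETS and SP1 motifs, and none of the progestin element core. The RUVBL2 window shown had AGAACA, the reverse complement of the element core, and 1 SP1 match. Its other window had 1 SP1 match and no match to the element core. No motif was found in the RUVBL1 window shown. HELLS had GCGCCAAA, the reverse complement of the E2F motif, and 2 SP1 matches. For 30 of the 37 members 45 windows were given. ACTL6A, ARID2, ATRX, BAZ1A, BPTF, SMARCC1 and SMARCC2 had none. The progestin element core occurred in 4.44% of member windows (INO80 and RUVBL2) and in 14.8% of all 35116 windows. Corresponding shares were 2.22% and 0.652% for E2F (HELLS), 8.89% and 10.3% for ETS (BCL7B, BRD9, EP400 and SMARCA2), and 62.2% and 33.1% for SP1, which was found in 24 members. These are matches of letters within windows that can overlap and can belong to the same gene, not binding sites.

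Signals are log2 intensities normalized by the authors with RMA. A change of 1 on this scale is a doubling of the array signal, and levels of different probe sets were not compared. Tests are from limma with Benjamini-Hochberg adjustment over 21214 probe sets, and a gene is said to have risen or fallen at an adjusted p under 0.05. Over the tested probe sets, array medians ranged from 4.52 to 4.62 and replicates correlated at 0.989 to 0.996. siCt EtOH replicate 3 and siCHD8 EtOH replicate 1 deviated most from their condition means over all probe sets (SD 0.202 and 0.195, against 0.125 to 0.180 for the other arrays). The 9 luminal epithelial markers all lay above the median of 3.80 over all probe sets, whereas 4 of 5 fibroblast and 5 of 5 blood and endothelial markers lay below it. Among the members SMARCD3, ACTL6B and DPF3, which are best known from muscle and neural forms of BAF, lay below this median, so that their changes rest on dim signal. In a bulk measurement fewer expressing cells and less RNA per cell cannot be told apart.

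CHD8, the siRNA target, was lower in siCHD8 under either treatment. With vehicle the siCt arrays gave 5.70, 5.71 and 5.91 and the siCHD8 arrays 5.04, 5.11 and 5.42. With R5020 the siCt arrays gave 5.24, 5.29 and 5.52 and the siCHD8 arrays 4.62, 4.77 and 4.81. The siCt and siCHD8 arrays did not overlap within a treatment. Over both treatments CHD8 signal in siCHD8 was 66.1% of siCt (log2 difference -0.60, SE 0.09, limma adjusted p = 0.00403), while neither treatment alone passed the test (adjusted p = 0.0711 with vehicle and 0.0627 with R5020). CHD8 also fell with R5020, by 0.42 in siCt (SE 0.13, adjusted p = 0.0349) and by 0.46 in siCHD8 (SE 0.13, adjusted p = 0.0258).

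R5020 changed the transcripts of some remodeler subunits in each direction. With siCt, EP400 and BAZ1A rose and ARID2, BAZ2A and BPTF fell. With siCHD8, EP400, RUVBL2, BAZ1A, BRD9, BCL7C and RUVBL1 rose and ARID2, SRCAP and BPTF fell. Averaged over both siRNAs, 7 members rose, 6 fell and 24 did not pass the test, with ACTL6A also higher and BAZ2A, SMARCC2 and SMARCD1 also lower.

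The members' counts stand against a broad hormone response on the array. With siCt, 2 of 37 members rose and 3 fell, where 8.1% and 6% of all probe sets did. With siCHD8, 6 rose and 3 fell, where the background was 6.04% and 5.43%. Over both siRNAs 35.1% of members passed the test in either direction, compared with 10.4% of probe sets that rose plus 9.72% that fell, 20.1% in all. Because few members were dim, the 34 members at or above the median of all probe sets were also set against brighter probe sets. These were the 12999 tested probe sets at or above that median, and signal was not matched more closely. Over both siRNAs 38.2% of these members passed, and 28.7% of these probe sets did (15.5% higher and 13.1% lower). The order was not the same within each siRNA, with 14.7% of members against 20.5% of probe sets in siCt and 26.5% against 16.8% in siCHD8. The members' median change was -0.07 with siCt, -0.12 with siCHD8 and -0.09 over both, against -0.05, -0.02 and -0.04 over all probe sets.

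The split between risers and fallers depended on the scaling of the arrays. With siCt it was 2 higher and 3 lower as deposited, 4 and 1 after median centring, and 2 and 7 after a further quantile normalization. Centring added RUVBL1 and RUVBL2 as risers and removed BAZ2A and BPTF, and quantile normalization added SMARCC2, SMARCE1, SMARCD1 and SRCAP as fallers. Over both siRNAs it was 7 and 6, 7 and 5, and 6 and 11. The additional fallers after quantile normalization were SMARCB1, SMARCE1, BCL7B, DPF2 and PBRM1, and ACTL6A was lost. With siCHD8 the split of 6 and 3 was the same under the 3 scalings, with all 9 calls shared.

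**Figure D1:**
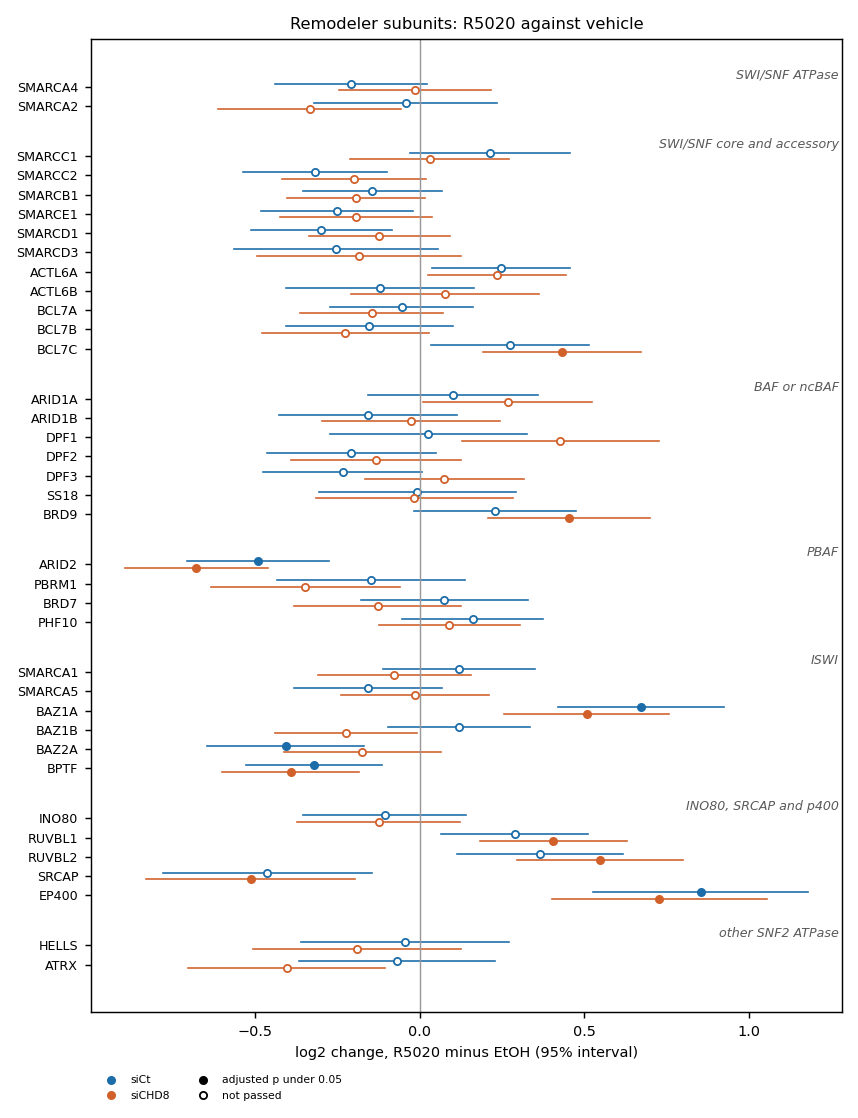
Change in log2 intensity from EtOH to R5020 for the 37 members, grouped by role, in siCt (blue) and siCHD8 (orange) cells. Points are estimates over 3 arrays per condition, lines are 95% intervals and filled points passed an adjusted p of 0.05; EP400 and BAZ1A lie farthest to the right and ARID2 farthest to the left.

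The largest rise was that of EP400, the ATPase of the TIP60/p400 acetyltransferase complex. EP400 read 6.34, 6.40 and 6.91 with vehicle and 7.25, 7.44 and 7.52 with R5020 in siCt. In siCHD8 it read 6.40, 6.70 and 6.73 with vehicle and 7.21, 7.30 and 7.50 with R5020. All 6 R5020 arrays lay above all 6 vehicle arrays. The rise was 1.81-fold in siCt (log2 change 0.85, SE 0.15, adjusted p = 0.0012) and 1.66-fold in siCHD8 (0.73, SE 0.15, adjusted p = 0.00484). EP400 has a pseudogene copy, EP400P1, which was looked up after these values were seen. EP400P1 has a probe set of its own, with a log2 change of -0.29 in siCt (95% interval -0.62 to 0.04) and 0.02 in siCHD8 (-0.31 to 0.35). Hybridization of EP400P1 transcripts to the EP400 probes was not tested.

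RUVBL1 and RUVBL2, the AAA+ ATPases shared by INO80, SRCAP and p400 complexes, rose alongside. RUVBL2 gave 6.69, 6.75 and 6.76 with vehicle and 7.02, 7.03 and 7.25 with R5020 in siCt, then 6.15, 6.44 and 6.46 with vehicle and 6.75, 6.92 and 7.01 with R5020 in siCHD8. RUVBL1 gave 7.19, 7.21 and 7.28 against 7.48, 7.51 and 7.55 in siCt, and 6.43, 6.63 and 6.68 against 6.91, 6.93 and 7.12 in siCHD8. Within each siRNA the R5020 arrays of either gene lay above the vehicle arrays. In siCHD8 the rise was 1.46-fold for RUVBL2 (log2 change 0.55, SE 0.12, adjusted p = 0.00572) and 1.32-fold for RUVBL1 (0.41, SE 0.10, adjusted p = 0.0188). In siCt the changes of 0.37 and 0.29 missed the threshold (adjusted p = 0.0514 and 0.0832) and the 95% intervals were 0.11 to 0.62 and 0.06 to 0.51. Averaged over the siRNAs the changes were 0.46 for RUVBL2 (adjusted p = 0.000877) and 0.35 for RUVBL1 (adjusted p = 0.00311). RUVBL1 in siCHD8 no longer passed without siCHD8 EtOH replicate 2 or without siCHD8 R5020 replicate 2 (adjusted p = 0.0886 and 0.106), nor with the siCHD8 arrays fitted alone (0.0621).

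SRCAP, the ATPase that deposits H2A.Z, moved the other way. SRCAP read 7.23, 7.30 and 7.83 with vehicle and 6.99, 6.99 and 7.0 with R5020 in siCt, and 7.28, 7.48 and 7.57 against 6.81, 6.85 and 7.12 in siCHD8. Every R5020 array was lower than every vehicle array. The change was -0.46 in siCt (SE 0.15, adjusted p = 0.051), -0.51 in siCHD8 (SE 0.15, adjusted p = 0.036) and -0.49 over both (SE 0.11, adjusted p = 0.00333). The call in siCHD8 was lost without siCt R5020 replicate 1, siCHD8 EtOH replicate 1 or 2, or siCHD8 R5020 replicate 1 or 2 (adjusted p = 0.051 to 0.14), and with probe sets without a symbol included in the adjustment (0.0866). INO80, the ATPase that names its class, gave -0.11 in siCt and -0.12 in siCHD8 (mean -0.12, 95% interval -0.29 to 0.06). Of the 5 genes of this class 3 thus rose and 1 fell over both siRNAs, where 10.4% of all probe sets rose and 9.72% fell. Among probe sets at or above the median 15.5% rose and 13.1% fell.

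In the ISWI class BAZ1A rose, BPTF and BAZ2A fell and the catalytic subunits did not pass the test. Over both siRNAs the called genes are 50% of 6, against 20.1% of all probe sets and 28.7% of those at or above the median. SMARCA5 (SNF2H) gave a mean hormone change of -0.09 (95% interval -0.25 to 0.07) and SMARCA1 (SNF2L) one of 0.02 (-0.14 to 0.18). BAZ1A (ACF1), the partner of SMARCA5 in the ACF and CHRAC spacing complexes, read 6.20, 6.45 and 6.68 with vehicle and 7.07, 7.12 and 7.16 with R5020 in siCt. BAZ1A in siCHD8 read 6.59, 6.61 and 6.74 with vehicle and 7.13, 7.14 and 7.18 with R5020. Again all R5020 arrays were higher than all vehicle arrays. The rise was 1.59-fold in siCt (log2 change 0.67, SE 0.12, adjusted p = 0.000973) and 1.42-fold in siCHD8 (0.51, SE 0.12, adjusted p = 0.00956).

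BPTF, the large subunit of the NURF complex, had 7.18, 7.23 and 7.32 with vehicle and 6.87, 6.91 and 6.99 with R5020 in siCt. BPTF had 7.13, 7.23 and 7.32 against 6.82, 6.83 and 6.84 in siCHD8. The vehicle and R5020 arrays did not overlap over the siRNAs together. It fell by 0.32 in siCt (SE 0.10, adjusted p = 0.0387), by 0.39 in siCHD8 (SE 0.10, adjusted p = 0.0147) and by 0.36 over both (SE 0.07, adjusted p = 0.0014). The siCt call was lost when any of the 6 siCt or 3 siCHD8 R5020 arrays was left out (adjusted p = 0.0563 to 0.117), and the siCHD8 call without siCHD8 R5020 replicate 2 or 3 (adjusted p = 0.0562 and 0.0513). The siCt call of BPTF was also lost after median centring (0.108), with probe sets without a symbol in the adjustment (0.053) and with the siCt arrays fitted alone (0.074).

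BAZ2A (TIP5), a subunit of the nucleolar NoRC complex that silences ribosomal RNA genes, read 7.57, 7.68 and 7.91 with vehicle and 7.22, 7.32 and 7.40 with R5020 in siCt. In siCHD8 the values were closer together, 7.81, 7.82 and 7.86 with vehicle and 7.55, 7.64 and 7.78 with R5020. BAZ2A fell by 0.41 in siCt (SE 0.11, adjusted p = 0.0235), and the change in siCHD8 was -0.17 (SE 0.11, adjusted p = 0.414, 95% interval -0.41 to 0.07). The difference between these responses was 0.23 (95% interval -0.10 to 0.57, adjusted p = 0.638), so the responses were not shown to differ. Without siCt EtOH replicate 3, siCt R5020 replicate 2 or siCt R5020 replicate 3 the siCt call was lost (adjusted p = 0.0676 to 0.09), as it was after median centring (0.0512) and with the siCt arrays fitted alone (0.055). BAZ1B (WSTF), the paralog of BAZ1A, gave 0.12 in siCt and -0.22 in siCHD8, neither of which passed the test.

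Among subunits of the PBAF form of SWI/SNF, ARID2, its DNA-binding scaffold, fell in both siRNA conditions. ARID2 read 6.88, 7.0 and 7.02 with vehicle and 6.44, 6.49 and 6.50 with R5020 in siCt. ARID2 in siCHD8 read 6.86, 6.99 and 7.14 with vehicle and 6.31, 6.31 and 6.34 with R5020. No R5020 array reached the lowest vehicle array. Signal after R5020 was 71.2% of vehicle in siCt (log2 change -0.49, SE 0.10, adjusted p = 0.00363) and 62.5% in siCHD8 (-0.68, SE 0.10, adjusted p = 0.000296). PBRM1 (polybromo), another PBAF subunit, read 6.19, 6.22 and 6.24 against 5.93, 6.08 and 6.20 in siCt, and 6.14, 6.25 and 6.63 against 5.84, 5.98 and 6.16 in siCHD8. Its groups overlapped, and its mean change of -0.25 missed the threshold (SE 0.09, adjusted p = 0.082). The bromodomain subunit BRD7 gave a mean of -0.03 and PHF10 one of 0.12, and neither passed.

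In the BAF and ncBAF forms BRD9, the bromodomain subunit that marks ncBAF, was the member that rose. BRD9 read 5.66, 5.78 and 5.89 with vehicle and 5.89, 6.00 and 6.13 with R5020 in siCt, and 5.63, 5.80 and 5.88 against 6.08, 6.27 and 6.31 in siCHD8. The groups touched in siCt and were apart in siCHD8. The change was 0.23 in siCt (SE 0.12, adjusted p = 0.212), 0.45 in siCHD8 (SE 0.12, adjusted p = 0.0172) and 0.34 over both (SE 0.08, adjusted p = 0.00698), and the difference between siRNAs was 0.22 (95% interval -0.12 to 0.57). The siCHD8 call was lost without siCHD8 EtOH replicate 2 or siCHD8 R5020 replicate 2 or 3 (adjusted p = 0.0717 to 0.0831). ARID1A, the DNA-binding scaffold of BAF, had 5.69, 5.77 and 6.12 against 5.93, 5.95 and 6.00 in siCt, and 5.72, 5.80 and 5.86 against 5.93, 6.10 and 6.15 in siCHD8. The ARID1A arrays overlapped in siCt and were apart in siCHD8, and its mean change of 0.18 did not pass (adjusted p = 0.155, 95% interval 0.00 to 0.37). ARID1B (mean -0.09), DPF1 (0.23), DPF2 (-0.17), DPF3 (-0.08) and SS18 (-0.01) did not pass either.

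The catalytic subunits of SWI/SNF did not pass the test in any comparison. SMARCA4 read 6.82, 6.91 and 7.13 with vehicle and 6.68, 6.76 and 6.80 with R5020 in siCt, and 6.71, 6.83 and 6.93 against 6.78, 6.81 and 6.85 in siCHD8. SMARCA2 read 5.37, 5.39 and 5.71 against 5.42, 5.46 and 5.47 in siCt, and 5.46, 5.73 and 5.74 against 5.13, 5.28 and 5.52 in siCHD8. SMARCA4 lay below vehicle in siCt and within it in siCHD8, whereas SMARCA2 overlapped in both. The mean hormone change was -0.11 for SMARCA4 (95% interval -0.27 to 0.05) and -0.19 for SMARCA2 (-0.38 to 0.01). A p that misses the threshold does not show equal levels, and these intervals include decreases of up to 0.27 and 0.38.

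Of the 11 core and accessory subunits measured, BCL7C and ACTL6A rose and SMARCC2 and SMARCD1 fell over both siRNAs. These are 36.4% of 11, against 20.1% of all probe sets and 28.7% of those at or above the median. BCL7C, a small accessory subunit, read 6.30, 6.33 and 6.55 against 6.51, 6.71 and 6.78 in siCt and 6.04, 6.15 and 6.24 against 6.51, 6.58 and 6.64 in siCHD8. ACTL6A (BAF53A), an actin-related subunit also present in INO80-class complexes, read 7.47, 7.52 and 7.62 against 7.73, 7.80 and 7.82 in siCt and 7.25, 7.34 and 7.46 against 7.57, 7.58 and 7.60 in siCHD8. Within each siRNA ACTL6A was higher on every R5020 array, whereas BCL7C overlapped in siCt. BCL7C changed by 0.43 in siCHD8 (SE 0.11, adjusted p = 0.02) and by 0.35 over both (SE 0.08, adjusted p = 0.00469), and ACTL6A by 0.24 over both (SE 0.07, adjusted p = 0.0223). Without siCHD8 EtOH replicate 1 or 2 or siCHD8 R5020 replicate 2 or 3 BCL7C missed the threshold in siCHD8 (adjusted p = 0.0508 to 0.0865). ACTL6A was lost without replicate 1 of siCt EtOH, siCt R5020 or siCHD8 R5020 (adjusted p = 0.0528 to 0.057) and after quantile normalization.

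SMARCC2 (BAF170), a scaffold of the core, read 8.22, 8.23 and 8.47 against 7.91, 8.02 and 8.04 in siCt and 7.99, 8.02 and 8.03 against 7.74, 7.83 and 7.87 in siCHD8. SMARCD1 (BAF60A), which links the complexes to transcription factors, read 7.66, 7.84 and 7.89 against 7.45, 7.50 and 7.53 in siCt and 7.43, 7.48 and 7.53 against 7.26, 7.39 and 7.41 in siCHD8. Each was lower on every R5020 array within a siRNA. SMARCC2 changed by -0.26 over both siRNAs (SE 0.07, adjusted p = 0.0181) and SMARCD1 by -0.21 (SE 0.07, adjusted p = 0.0494). SMARCC2 was lost without siCHD8 R5020 replicate 2 (adjusted p = 0.053), as was BAZ2A over both siRNAs (adjusted p = 0.05). The SMARCD1 call was lost when any array but siCt EtOH replicate 1 was left out (adjusted p = 0.052 to 0.128), after median centring (0.129) and with probe sets without a symbol in the adjustment (0.0668).

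The remaining core subunits did not pass. SMARCC1 (BAF155), the paralog of SMARCC2, read 7.08, 7.18 and 7.21 against 7.32, 7.38 and 7.41 in siCt and 6.90, 7.22 and 7.32 against 7.14, 7.19 and 7.20 in siCHD8. SMARCB1 (SNF5), a core subunit and tumour suppressor, read 7.30, 7.33 and 7.50 against 7.18, 7.24 and 7.28 in siCt and 7.39, 7.41 and 7.48 against 7.16, 7.26 and 7.27 in siCHD8. SMARCE1 (BAF57), which can contact nuclear receptors, read 8.26, 8.34 and 8.56 against 8.11, 8.14 and 8.15 in siCt and 8.17, 8.23 and 8.30 against 7.94, 8.03 and 8.16 in siCHD8. SMARCB1 and SMARCE1 were lower on every R5020 array, by 0.17 (adjusted p = 0.109, 95% interval -0.32 to -0.02) and 0.22 (adjusted p = 0.0523, -0.38 to -0.06), but short of the threshold over all probe sets. SMARCC1 gave 0.12 (-0.05 to 0.29). SMARCD3 (-0.22), ACTL6B (-0.02), BCL7A (-0.10) and BCL7B (-0.19) did not pass, nor did HELLS (-0.12) and ATRX (-0.24). The second, dimmer ATRX probe set gave 0.12, with a 95% interval from -0.49 to 0.73.

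**Figure D2:**
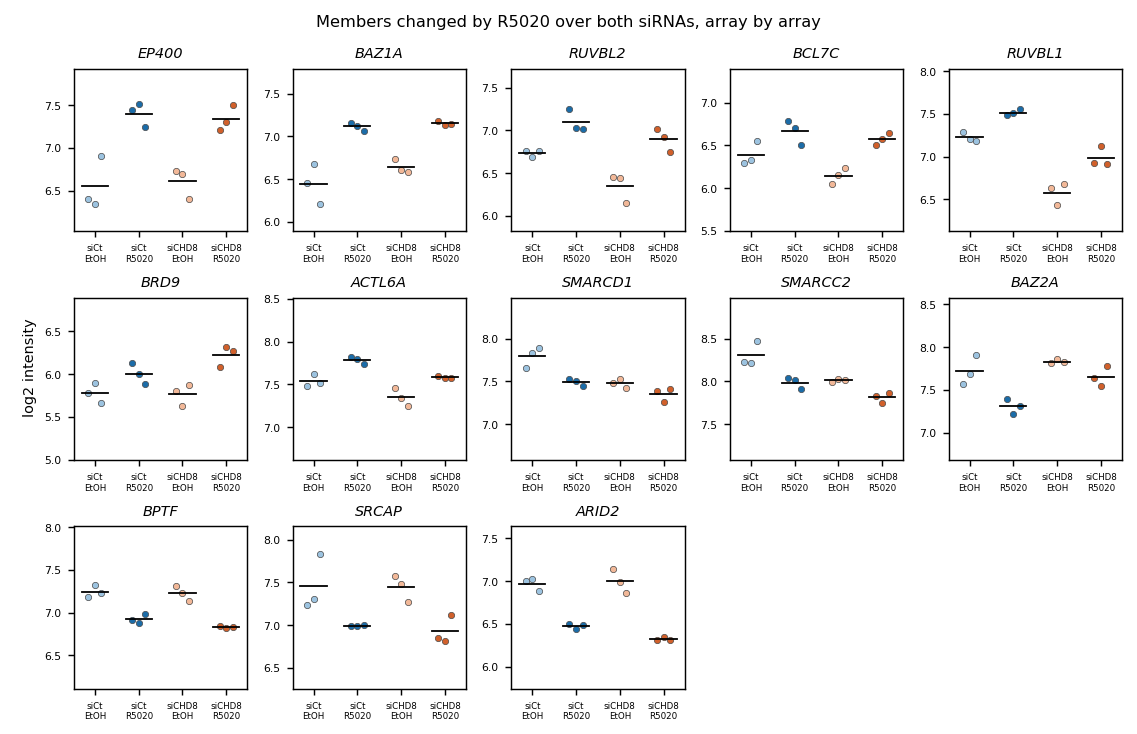
Log2 intensity on each array for the 13 members that passed the test over both siRNAs, ordered from the largest rise (EP400) to the largest fall (ARID2). Points are arrays, 3 per condition, bars are condition means, and every panel spans the same number of log2 units; EP400 and BAZ1A are higher and ARID2, SRCAP and BPTF lower on all 6 R5020 arrays than on all 6 vehicle arrays.

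Markers of the luminal line itself moved with the hormone. Of the 9 luminal markers 6 fell over both siRNAs, KRT18, CDH1, ESR1, PGR, GATA3 and FOXA1, by 0.28 to 1.53. That is 66.7% of 9, where 9.72% of all probe sets and 13.1% of those at or above the median fell. Their summed log2 level was 86.8 to 87.9 in siCt EtOH, 81.4 to 82.1 in siCt R5020, 85.5 to 87.2 in siCHD8 EtOH and 80.7 to 81.4 in siCHD8 R5020. Among markers of other cell types COL1A1 fell by 0.35, and the summed level of the 5 fibroblast markers was 18.3 to 18.8, 17.0 to 17.8, 18.2 to 19.3 and 18.1 to 18.2 in the same order. The 5 blood and endothelial markers summed to 9.87 to 10.98 over all arrays, and none passed the test over both siRNAs. Their part in the members' changes was not tested.

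By the limits that the study set for hormone genes in siCt, an adjusted p under 0.01 with a fold over 1.5, 6.55% of probe sets were hormone-responsive, and EP400 and BAZ1A were the members among them. The ratio of the linear folds, siCHD8 over siCt, was 0.917 for EP400 and 0.892 for BAZ1A, inside the range of 0.8 to 1.2 that the study used to separate CHD8-dependent genes.

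The hormone response of the members was not shown to depend on the siRNA. No member passed the test of the difference between the responses, as none of the probe sets did (0% at an adjusted p of 0.05). At an unadjusted p under 0.05 there was 1 member, BAZ1B, against 9.56% of all probe sets. BAZ1B, a kinase-containing ISWI partner, read 6.92, 6.93 and 6.93 with vehicle and 7.03, 7.05 and 7.06 with R5020 in siCt, then 6.84, 6.97 and 7.08 with vehicle and 6.64, 6.73 and 6.85 with R5020 in siCHD8. The R5020 arrays were above vehicle in siCt and mostly below it in siCHD8, a difference of -0.34 (95% interval -0.65 to -0.04, unadjusted p = 0.0298 and adjusted p = 0.506 from limma). The median SE of a member's difference was 0.16, and differences as large as 0.40 for DPF1 (95% interval -0.02 to 0.82, adjusted p = 0.544) did not pass. Over all probe sets tested the differences ran from -1.59 to 1.80, and none of these passed either (lowest adjusted p = 0.356 from limma). With 3 arrays per condition, missing the threshold therefore does not show equal responses.

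RUVBL1 was lower with siCHD8, and most members were left without a call. The arrays compare a single siRNA against CHD8 with siCt, so depletion of CHD8 and other effects of that siRNA cannot be told apart. With vehicle RUVBL1 was the member that fell, with 36 not passing. With R5020 no member passed, and 6 of 37 had an unadjusted p under 0.05, as 13.9% of all probe sets did. Averaged over the treatments RUVBL1, HELLS and DPF1 fell and none rose. The siCt EtOH arrays serve in both the hormone and the knockdown comparisons.

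These counts stand against small backgrounds. With vehicle 0.113% of probe sets rose and 0.179% fell, with R5020 0.033% and 0.156%, and over both 0.372% and 1.39%. The 3 members that fell over both treatments are 8.11% of 37, against 1.76% of all probe sets in either direction. At or above the median signal the shares were 8.82% of members and 2.65% of probe sets. The median change of the members was -0.02 with vehicle, -0.08 with R5020 and -0.04 over both, where that of all probe sets was -0.01, 0.01 and 0.01.

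RUVBL1 values, given above, were 7.19 to 7.28 in siCt and 6.43 to 6.68 in siCHD8 with vehicle, and 7.48 to 7.55 against 6.91 to 7.12 with R5020. All 6 siCHD8 arrays lay below all 6 siCt arrays. Signal in siCHD8 was 63.9% of siCt with vehicle (log2 difference -0.65, SE 0.10, adjusted p = 0.0192), and over both treatments 66.5% (-0.59, SE 0.07, adjusted p = 0.00143). With R5020 the difference was -0.53 (SE 0.10, adjusted p = 0.0582). The call with vehicle was lost without siCt EtOH replicate 1, siCt EtOH replicate 2 or siCHD8 EtOH replicate 2 (adjusted p = 0.0647, 0.0522 and 0.0793), and with the arrays of these conditions fitted alone (adjusted p = 0.274) or probe sets without a symbol in the adjustment (0.0594), whereas the one over both treatments passed in all alternatives (adjusted p = 0.000205 to 0.00793). RUVBL2 was lower by 0.39 with vehicle and 0.20 with R5020, short of the threshold over both (-0.30, SE 0.08, adjusted p = 0.0925). The hormone and knockdown changes of RUVBL1 had opposite signs. RUVBL1 in siCHD8 cells with R5020 (6.91 to 7.12) still read below siCt cells with vehicle (7.19 to 7.28), without overlap.

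HELLS (LSH), an SNF2-type ATPase linked to DNA methylation and abundant in proliferating cells, read 4.95, 5.09 and 5.37 in siCt and 4.44, 4.71 and 4.94 in siCHD8 with vehicle. HELLS with R5020 read 4.94, 5.12 and 5.21 in siCt and 4.35, 4.49 and 4.68 in siCHD8. Within a treatment the siCHD8 arrays were all lower. The difference was -0.44 with vehicle (adjusted p = 0.233), -0.59 with R5020 (adjusted p = 0.113) and -0.51 over both (SE 0.10, adjusted p = 0.0226), that is 70.1% of siCt. Without siCt EtOH replicate 2, siCt R5020 replicate 1 or 3, siCHD8 EtOH replicate 3, or siCHD8 R5020 replicate 2 or 3 it missed the threshold (adjusted p = 0.051 to 0.0694), as it did when probe sets without a symbol were included in the adjustment (0.0722).

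DPF1, a PHD-finger subunit best known from neuronal BAF, read 4.32, 4.43 and 4.52 in siCt and 3.48, 3.82 and 4.12 in siCHD8 with vehicle. DPF1 with R5020 read 4.36, 4.42 and 4.56 in siCt and 4.18, 4.20 and 4.32 in siCHD8. The siCHD8 arrays were lower in each treatment and widely spread with vehicle. The mean difference was -0.41 (SE 0.10, adjusted p = 0.0478), and the call was lost when any array but siCHD8 EtOH replicate 1 was left out (adjusted p = 0.0536 to 0.116) and after either rescaling of the arrays (0.0627 and 0.0687). Its mean signal of 4.23 was little above the median of 3.80 over all probe sets, which include those without a symbol. It was below the array medians of 4.52 to 4.62 over the tested probe sets, so the DPF1 change rests on fairly dim signal.

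**Figure D3:**
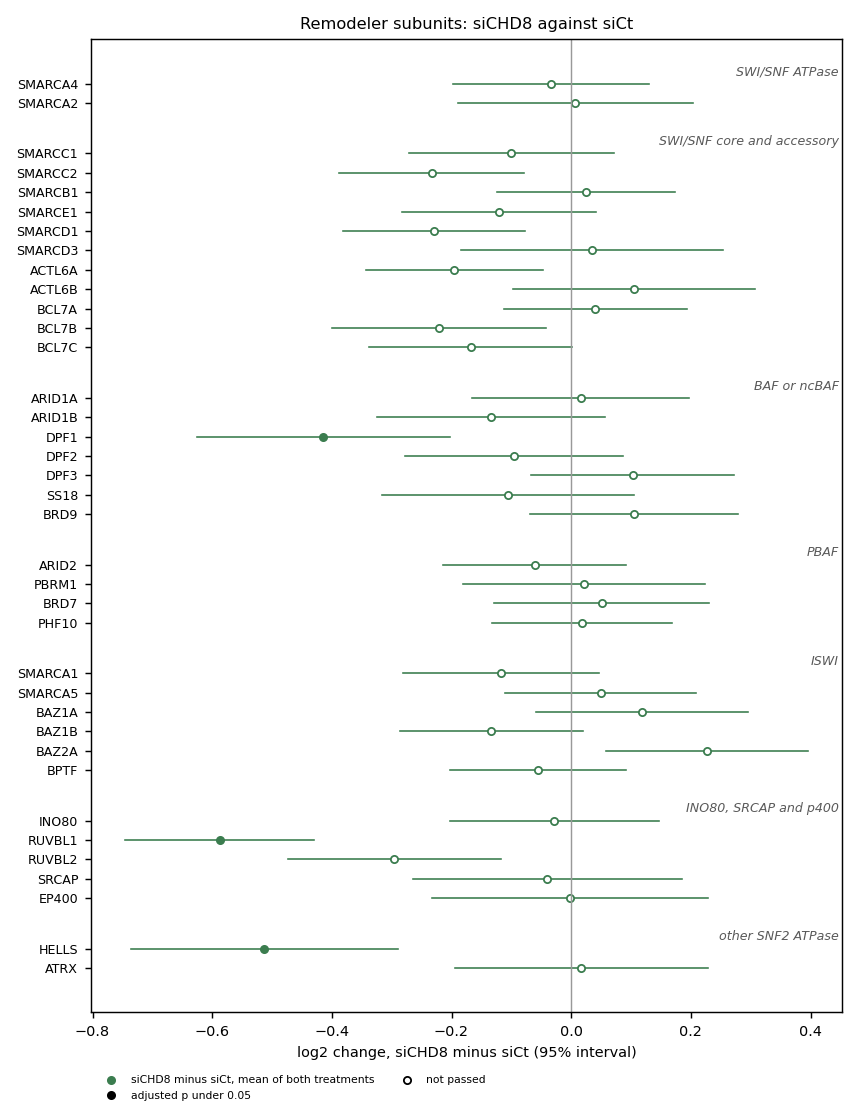
Difference in log2 intensity between siCHD8 and siCt, averaged over EtOH and R5020, for the 37 members grouped by role. Points are estimates from 12 arrays, lines are 95% intervals and filled points passed an adjusted p of 0.05; RUVBL1, HELLS and DPF1 are the filled points, all to the left of 0.

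The other members gave mean knockdown differences from -0.30 for RUVBL2 to 0.23 for BAZ2A. Among the ATPases the 95% intervals were -0.20 to 0.13 for SMARCA4, -0.19 to 0.20 for SMARCA2, -0.28 to 0.05 for SMARCA1, -0.11 to 0.21 for SMARCA5, -0.20 to 0.15 for INO80, -0.26 to 0.18 for SRCAP, -0.23 to 0.23 for EP400 and -0.19 to 0.23 for ATRX. SMARCC2 and SMARCD1 each gave -0.23 (adjusted p = 0.123 and 0.121), and SMARCB1 gave 0.02 (95% interval -0.12 to 0.17). BPTF (-0.05), ARID1A (0.02), PBRM1 (0.02), SMARCE1 (-0.12) and SMARCC1 (-0.10) were within 2 SE of 0.

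**Figure D4:**
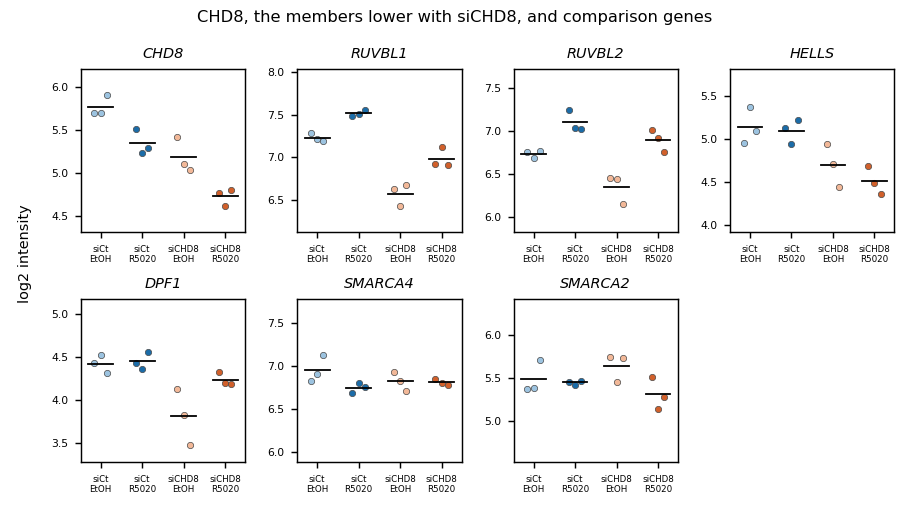
Log2 intensity on each array for CHD8, RUVBL1, RUVBL2, HELLS, DPF1, SMARCA4 and SMARCA2. Points are arrays, 3 per condition, and bars are condition means; all siCHD8 arrays of RUVBL1 lie below all of its siCt arrays, and those of SMARCA4 and SMARCA2 overlap.

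Many subunits have a paralog among the members, and the log2 difference between paralogs on the same array was followed. These differences carry no absolute meaning, but their shift shows unequal change. After centring, BAZ1B minus BAZ1A was 0.17 to 0.64 on the 6 vehicle arrays and -0.57 to -0.09 on the 6 R5020 arrays, with no overlap. Its mean shift with R5020 was -0.64, where the pooled SD within conditions was 0.14. SMARCC2 minus SMARCC1 shifted by -0.38 and ARID1B minus ARID1A by -0.28 (pooled SD 0.15 and 0.13), with overlapping arrays. The shift of SMARCA2 minus SMARCA4 had opposite signs, 0.17 in siCt and -0.32 in siCHD8 (mean -0.08, SD 0.14). With siCHD8 RUVBL2 minus RUVBL1 shifted by 0.29 (SD 0.18), and the arrays overlapped. No test was made of these shifts.

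Partner proteins of the same complexes that are not among the members were summarized from a separate list of 49 genes, of which 46 were measured. Over both siRNAs 4 rose with R5020 and 5 fell, 19.6% of 46 against 20.1% of all probe sets. RBBP7, a histone chaperone shared by NURF and other complexes, rose by 0.72 in siCt (SE 0.09, adjusted p = 6.31e-05) and by 0.72 in siCHD8 (SE 0.09, adjusted p = 7.95e-05). BAZ2B, a paralog of BAZ2A, fell by 0.64 in siCt (SE 0.12, adjusted p = 0.00144) and by 0.63 in siCHD8 (SE 0.12, adjusted p = 0.00196). UCHL5, a deubiquitinase of the INO80 complex and the proteasome, rose by 0.42 over both (adjusted p = 0.00198), and CECR2, an ISWI partner, by 0.43 (adjusted p = 0.00635).

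For the knockdown, 3 of these 46 partners rose over both treatments (6.52%) and none fell, where 0.372% of all probe sets rose and 1.39% fell. MEAF6, a subunit of the TIP60/p400 complex, rose by 0.70 with vehicle (SE 0.10, adjusted p = 0.00881), and the change with R5020 was 0.16 (adjusted p = 0.481). With R5020 in siCt MEAF6 was higher by 0.69 (SE 0.10, adjusted p = 0.000114), the change in siCHD8 being 0.15 (adjusted p = 0.403). The rises of 0.70 and 0.69 are measured from the same siCt EtOH arrays, so they are not independent. The difference between the hormone responses was -0.54 and did not pass the adjustment (adjusted p = 0.49). BAZ2B gave 0.42 over both treatments (adjusted p = 0.0192) and YY1, the zinc finger protein of the INO80 complex, 0.32 (adjusted p = 0.036). Partner calls, here and for the hormone, were not re-computed with arrays left out or with other settings, unlike those of the members.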

How the data were processed

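Total RNA of 12 samples was hybridized to GeneChip human Gene 1.0 ST arrays. The authors deposited 1 log2 intensity for each probe set and array, normalized by RMA (background correction, quantile normalization and summary of probes) and handled further with oneChannelGUI; no version or filter is stated for these steps. Of 33297 probe sets 21214 had a symbol in the platform annotation (19461 a single symbol, 1753 several) and were tested; 12083 had none, and 703 of those tested had the same values as another (0 members). Names were checked by Entrez ID against RefSeq GRCh38.p14 (19429 matched, 0 symbols changed), which also gave the promoter windows.

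With limma 3.58.1 (R 4.3.3), condition means were estimated from all 12 arrays and compared in 7 contrasts: R5020 against vehicle and siCHD8 against siCt, each alone and averaged, and the difference of responses. All arrays share the estimate of the spread, and precision is limited by how many arrays there are. The fit was tested on simulated data. Members, roles, partner and marker lists, motifs and the rule for named genes were chosen with earlier results of these data known. By that rule, array values are given for CHD8, members called in any contrast, SMARCA4, SMARCA2, SMARCB1, SMARCC1, SMARCC2, ARID1A, PBRM1, SMARCE1 and BPTF. The 6 called partners of lowest p are given by their changes alone. BAZ1B and EP400P1 were added after their values were seen. The alternatives changed the scaling (median centring or quantile normalization), the probe sets (without those below the median, with unnamed ones, the brightest per gene, or a member's mean), the variance (trend with robust fit, or weights for arrays), the samples (only those compared, or without each array in turn), the call rule (the study's limits) or the model (replicate number as a block). Figures used Python 3.11.15, pandas 2.3.3 and matplotlib 3.10.9.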

Additional observations from a re-analysis of the deposited data

How the results depend on the processing

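No called member changed direction under the alternatives, but values near 0 changed sign in some of them: the members' median for the knockdown with vehicle (-0.02) and for the difference of responses (-0.01), and the shifts of SMARCD3 minus SMARCD1 with R5020 and of SMARCA2 minus SMARCA4 with siCHD8. Of single-gene calls, 589 of the planned re-computations stayed past the threshold in the same direction and 108 missed it; of those with 2 arrays left out (below), 28 and 3. Members higher and lower with R5020 in siCt, 2 and 3, became 4 and 1 with median centring, 2 and 7 with quantile normalization, 4 and 6 without dim probe sets, 5 lower with 1 probe set per gene, 6 lower with the trended and robust variance, 4 higher with array weights, 1 lower with the conditions alone and 0 lower at the study's limits; the median was -0.012 with centring. In siCHD8 the study's limits left 1 higher and 1 lower, and the median was -0.054 with array weights. Over both siRNAs 11 were lower with quantile normalization, and 2 higher and 0 lower at the study's limits. For the knockdown with vehicle the 1 faller became 2 without dim probe sets and 0 with all probe sets, the replicate block (RUVBL1 adjusted p = 0.0614), the study's limits or the conditions alone. With R5020 there was 1 faller without dim probe sets, with 1 probe set per gene, with the trended and robust variance or the conditions alone, and 3 with array weights; the median was -0.013 with quantile normalization. Over both treatments there was 1 (RUVBL1) with all probe sets or the study's limits. The cause was not tested, except that a stricter limit or another number of probe sets changes the adjustment itself.

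Leaving out each array in turn gave 2 to 3 higher, 1 to 5 lower and medians of -0.130 to -0.050 for the hormone in siCt; 3 to 6, 1 to 3 and -0.123 to -0.053 in siCHD8; 6 to 8, 3 to 7 and -0.11 to -0.06 over both. It gave 0 to 2 lower (median -0.076 to 0.0028) for the knockdown with vehicle, 0 to 1 (-0.11 to -0.05) with R5020 and 1 to 3 (-0.08 to -0.03) over both, and medians of -0.063 to 0.044 for the difference of responses. With the most deviating pair of arrays (siCt EtOH replicate 3, siCHD8 EtOH replicate 1) left out, a choice made after seeing the data, the median in siCHD8 was -0.053 and 1 member fell with siCHD8 under R5020 (RUVBL1), while the vehicle call passed to DPF1. Deviations of same-numbered arrays correlated at -0.25 to 0.20, and 5 of 12 arrays were closest to their own number. This does not decide whether the numbers pair the samples, which the labels do not say. With the replicate number as a block the calls were 3 higher and 2 lower in siCt. They were 6 and 4 in siCHD8 and 7 and 5 over both. BPTF in siCt, SMARCD1 over both, RUVBL1 with vehicle and DPF1 were lost. Signal near background limits what can be said of SMARCD3, ACTL6B and DPF3.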
